A study of Arabidopsis thaliana with 13 samples.

Results

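The genes described are the xyloglucan endotransglucosylase/hydrolase genes (XTH), the alpha-expansin genes (EXPA) and the beta-expansin genes (EXPB) of Arabidopsis thaliana. They were chosen by name, as every nuclear protein-coding gene of the RefSeq table whose symbol or synonym is XTH, EXPA or EXPB with a number, with or without a leading AT. The rule found 63 of 27444 genes, of which 33 are XTH, 24 EXPA and 6 EXPB. TCH4 (AT5G57560) counted as XTH22, EXGT-A3 as XTH27, XTR6 as XTH23 and EXP3 as EXPA3. EXPA19 is a pseudogene in the table and EXP26 carries no synonym of that form, so neither was a member.

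The plant cell wall holds cellulose fibres tied together by other polysaccharides, among them xyloglucan. XTH enzymes cut a xyloglucan chain and join the cut end to another chain, and some members cut without rejoining. Expansins loosen the wall in acid conditions without cutting its polymers. Both families are known for their part in the expansion of hypocotyl, leaf and root cells, and several members respond to auxin, brassinosteroid, touch or shade.

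Binding regions were listed for 3 proteins in whole Columbia seedlings, each list made from chromatin precipitated with an anti-FLAG antibody and set against a mock precipitation with IgG from the same line. The CRY2 line carried a 3xFlag-6xHis-CRY2 transgene under the UBQ10 promoter, the PIF4 line PIF4-3xFlag-6xHis, and the PIF5 line PIF5-Flash(9xMyc-6xHis-3xFlag). The labels do not name the promoters of the PIF transgenes, nor the state of the native genes in these lines. CRY2 is a blue-light receptor, and PIF4 and PIF5 are bHLH transcription factors of growth in shade and warmth. All plants were 5 days old, grown in continuous white light at 22 °C after 2 days of stratification. They had then spent 16 h in low blue light, so no group in another light was compared. The CRY2 list came from 2 FLAG and 2 IgG libraries, the PIF4 list from 3 FLAG and 2 IgG, and the PIF5 list from 2 FLAG and 2 IgG. The CRY2 precipitation started from 18 g of material and used an additional cross-linker, and those of the PIFs started from 2 g without it. Each list pools its replicates and library depth is unknown, so no value below has an error between replicates and none of the differences was tested. The lists held 7320 CRY2, 9925 PIF4 and 3767 PIF5 peaks. The strength of a peak is its fold enrichment over control, which was compared only within a list, where the median over all peaks was 2.29 in the CRY2 list, 2.46 in the PIF4 list and 2.40 in the PIF5 list.

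PIF4 was the protein most often found at these genes, as it was at all genes, and its list was the longest. When each peak was given to the gene nearest to its summit, up to 3 kb away, 29 of the 63 members had a PIF4 peak (46.0%, against 28.8% of all 27444 genes). CRY2 peaks were at 16 members (25.4%, against 22.1% of all genes) and PIF5 peaks at 9 (14.3%, against 11.9%). For CRY2 and PIF5 the share was thus near that of genes at large. At least 1 of the 3 proteins was at 32 members (50.8%, against 37.6% of all genes). In lists cut to an equal size of 3767 peaks the 3 proteins stood closer together. PIF4 was then at 13 members (20.6%, against 12.2% of all genes), CRY2 at 11 (17.5%, against 12.2%) and PIF5 at 9 (14.3%, against 11.9%).

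When every gene within 1 kb of a summit counted, so that a peak could serve neighbouring genes, PIF4 was at 28 members (44.4%, against 36.3% of all genes), CRY2 at 19 (30.2%, against 29.7%) and PIF5 at 7 (11.1%, against 15.2%). PIF5 thus stood above the share of all genes by the nearest-gene rule and below it by the 1 kb rule. By either rule 37 members (58.7%, against 49.0% of all genes) had a peak of some protein. The 26 members without any were XTH1, XTH2, XTH3, XTH5, XTH6, XTH10, XTH11, XTH12, XTH13, XTH16, XTH20, XTH21, XTH29, EXPA12, EXPA13, EXPA14, EXPA18, EXPA20, EXPA21, EXPA22, EXPA23, EXPA24, EXPA25, EXPB2, EXPB5 and EXPB6.

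**Figure D1:**
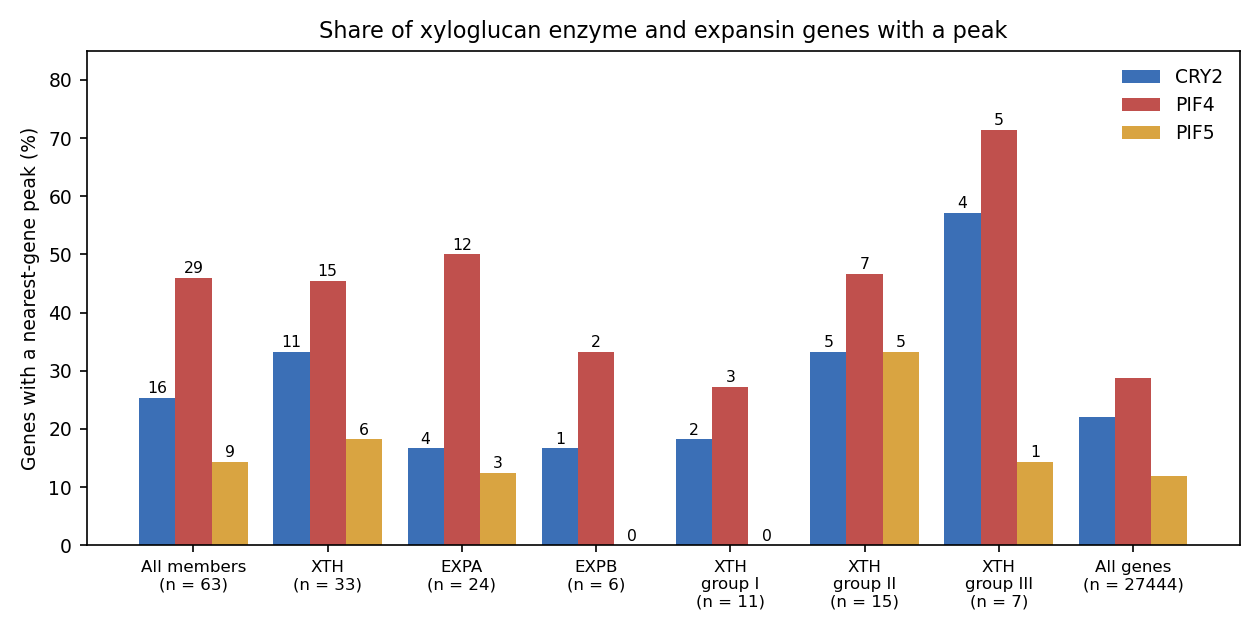
Bars give the percent of genes with a nearest-gene peak of CRY2, PIF4 or PIF5, and the number above a bar is the count of genes. All 63 members, the 3 subfamilies and the 3 XTH groups stand left of all 27444 protein-coding genes; the PIF4 bar is highest in XTH group III, with 5 of 7 genes.

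CRY2 peaks were more frequent at XTH genes than at expansin genes. By the nearest gene, CRY2 was at 11 of 33 XTH genes (33.3%), 4 of 24 EXPA genes (16.7%) and 1 of 6 EXPB genes (16.7%), against 22.1% of all genes. PIF4 was at 15 XTH genes (45.5%), 12 EXPA genes (50%) and 2 EXPB genes (33.3%), against 28.8% of all genes. PIF5 was at 6 XTH genes (18.2%), 3 EXPA genes (12.5%) and no EXPB gene, against 11.9%. The XTH share of CRY2 was therefore above that of all genes and the EXPA share below it. The PIF4 share was above that of all genes at the XTH and EXPA genes. At the 6 EXPB genes it was near that of all genes by the nearest gene. With summits outside genes within 1 kb it was 16.7%, against 16.8%. When every gene within 1 kb of a summit counted, PIF4 was at 3 EXPB genes (50%, against 36.3% of all genes). PIF5 was then at 2 EXPB genes (33.3%, against 15.2%).

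Within the XTH family the share of genes with any peak was larger among the higher-numbered genes, though not for each protein. By the common numbering, XTH1 to XTH11 form group I, XTH12 to XTH26 group II, and XTH27 to XTH33 group III, which includes enzymes known to hydrolyse xyloglucan. This division was chosen after the values were seen. In group III 6 of 7 genes had a nearest-gene peak of some protein, all but XTH29. PIF4 was at 5 (71.4%, against 28.8% of all genes), CRY2 at 4 (57.1%, against 22.1%) and PIF5 at 1 (14.3%, against 11.9%). In group II it was 8 of 15 genes, with PIF4 at 7 (46.7%), CRY2 at 5 (33.3%) and PIF5 at 5 (33.3%). In group I it was 4 of 11 genes, XTH4, XTH7, XTH8 and XTH9, with PIF4 at 3 (27.3%), CRY2 at 2 (18.2%) and PIF5 at 0. PIF4 in group I and PIF5 in group III were thus near the shares of all genes. The share of group I with any peak, 36.4%, was close to the 37.6% of all genes, and that of group III was 85.7%.

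Taken by combination, all 3 proteins were at 4 members, XTH18, XTH22, XTH24 and EXPA6 (6.35%, against 7.15% of all genes). CRY2 and PIF4 without PIF5 were at 9 members (14.3%, against 6.38%): XTH8, XTH23, XTH27, XTH30, XTH33, EXPA4, EXPA5, EXPA15 and EXPB3. Both PIFs without CRY2 were at 5 (7.94%, against 3.97%): XTH15, XTH19, XTH28, EXPA8 and EXPA9. PIF4 alone was at 11 (17.5%, against 11.3%): XTH4, XTH7, XTH17, XTH31, EXPA1, EXPA3, EXPA7, EXPA10, EXPA11, EXPA17 and EXPB1. CRY2 alone was at 3 (4.76%, against 8.07%): XTH9, XTH25 and XTH32. No member had PIF5 without PIF4, which among all genes was 0.288% for PIF5 alone and 0.485% for PIF5 with CRY2. Of the 16 members with CRY2 13 also had PIF4 (81.2%, against 61.3% of all genes with CRY2). That order turned round among the stronger peaks, with 3 of 11 members (27.3%, against 46.6%) in the upper 50% of each list by fold enrichment and 2 of 11 (18.2%, against 38.1%) in lists of equal size.

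XTH22, the touch-induced xyloglucan enzyme gene also known as TCH4, had the strongest CRY2 peak of the members and the weakest PIF4 peak. Its CRY2 peak, on chromosome 5 from 23306902 to 23308277, had a fold enrichment of 6.56, rank 6 of 7320. The PIF5 peak at the gene (23306922 to 23308513) had 3.29, rank 477 of 3767. The PIF4 peak (23307016 to 23308578) had 1.78, rank 9907 of 9925. All 3 summits were inside the gene, the CRY2 and PIF5 summits 5 bp apart and the PIF4 summit 126 bp from that of CRY2. The next strongest CRY2 peak at a member, at XTH27, reached 2.87, so XTH22 stood far from the rest in that list and near the bottom of the PIF4 list.

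XTH22 is the last of 4 XTH genes in a row on chromosome 5, with XTH12, XTH13 and XTH25. A second CRY2 peak of 2.82 (23306410 to 23306743) lay in the gap between XTH25 and XTH22. Its summit was 188 bp from XTH25, to which it was assigned, and 378 bp from XTH22. It overlapped no PIF peak. The low-coordinate part of the row, with XTH12 and XTH13, held no peak of any of the 3 proteins.

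On chromosome 4 the neighbours XTH24 (AT4G30270), XTH18 (AT4G30280) and XTH19 (AT4G30290) lie within 11033 bp, and each had PIF4 and PIF5 peaks. XTH18 and XTH19 are known from roots, and XTH24 was first described as a gene of meristems. XTH24 had a CRY2 peak of 2.62, a PIF4 peak of 2.52 and a PIF5 peak of 2.56 inside the gene, with summits 12 bp (CRY2 to either PIF) and 24 bp (PIF4 to PIF5) apart. At XTH18 the stronger CRY2 peak, 2.67, was inside the gene (14825731 to 14826345), whereas the PIF4 and PIF5 peaks of 3.05 and 2.64 had summits 77 and 61 bp beyond its high-coordinate end. The nearest CRY2 and PIF5 summits at XTH18 were 1305 bp apart and their peaks did not overlap. Both proteins were thus at XTH18 but toward opposite ends of it. A further CRY2 peak of 2.22, in the gap between XTH24 and XTH18, had its summit 14 bp from that of a PIF4 peak of 2.71.

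XTH19 had PIF4 peaks of 2.46 and 2.57 on its 2 sides and 1 PIF5 peak of 2.33, and no CRY2 peak. The PIF4 peak of 2.46 and the PIF5 peak of 2.33 lay between XTH18 and XTH19 and were within 1 kb of both, so they count for both genes by the 1 kb rule. In all, the row held 4 CRY2, 6 PIF4 and 3 PIF5 summits within 1 kb. The row ran from CRY2 and both PIFs at XTH24 to PIFs without CRY2 at XTH19.

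**Figure D2:**
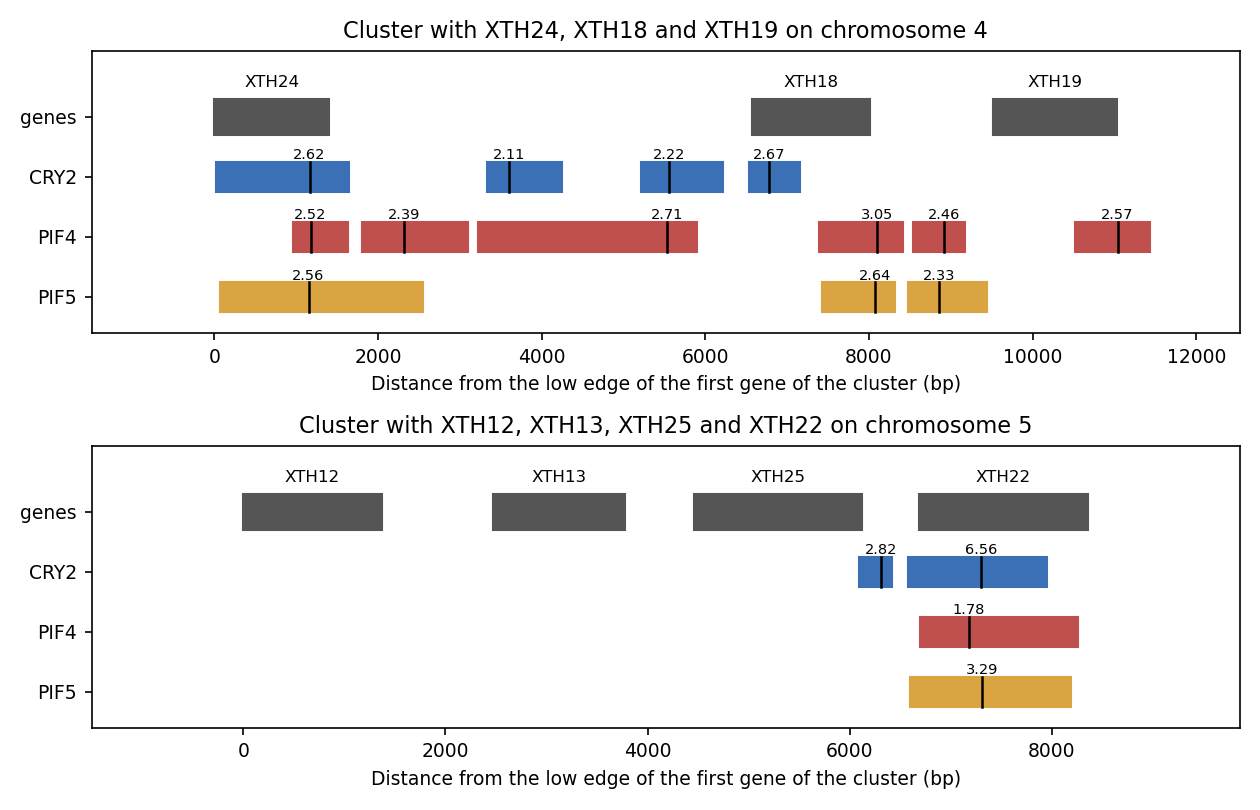
Genes (grey) and peaks of CRY2, PIF4 and PIF5 (bars from peak start to end, a black line at the summit, the fold enrichment above) in 2 rows of XTH genes, drawn by distance in bp from the low edge of the first gene, for peaks with a summit within 1 kb of the row. The 4 CRY2 peaks of the upper row lie at XTH24 and XTH18 or between them, and in the lower row all 4 peaks lie at XTH22 or next to it.

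The other rows of members differed widely. XTH23 had CRY2 peaks of 2.52 and 2.34 and a PIF4 peak of 2.25, all inside the gene, while its neighbour XTH14, known from roots, had only the CRY2 peak of 2.34 within 1 kb. The 5 expansin genes EXPA21, EXPA22, EXPA23, EXPA25 and EXPA24 in a row of 14363 bp on chromosome 5 had no peak of any list, and nor did the pairs XTH1 with XTH2 and EXPB2 with EXPB6. Genes in the rows share neighbours and peaks, so they are not independent. Rows were defined by gaps of at most 10 kb between members. Of the 18 members in rows 5 had a PIF4 peak (27.8%), and of the other 45 members 24 did (53.3%), against 28.8% of all genes. The members in rows thus stood near the PIF4 share of all genes. For PIF5 the order was the other way, with 4 of 18 (22.2%) in rows and 5 of 45 (11.1%) outside them, against 11.9% of all genes. For CRY2 the counts were 5 of 18 (27.8%) and 11 of 45 (24.4%), both near the 22.1% of all genes.

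Among the alpha-expansins, EXPA6 (AT2G28950) was the only member with peaks of all 3 proteins. It had 3 PIF4 peaks, of 3.30 at 1052 bp outside the gene, 2.65 inside it and 2.19 at 140 bp beyond the other end. The CRY2 peaks, 2.05 and 1.96, overlapped the 2 weaker PIF4 peaks, and the PIF5 peak of 2.26 overlapped the strongest. CRY2 and PIF5 were therefore at different places, with summits at least 1933 bp apart.

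The strongest PIF4 peaks assigned to members were at EXPA8, EXPA9 and XTH15, and each overlapped a PIF5 peak. EXPA8 (AT2G40610) had a PIF4 peak of 4.47 (chromosome 2, 16949842 to 16952787, rank 201 of 9925) with PIF5 peaks of 2.86 and 2.52. The PIF4 summit, at 1730 bp from the gene, was 8 bp from that of the weaker PIF5 peak, at 1722 bp. The stronger PIF5 peak, which the wide PIF4 peak also overlapped, had its summit at 417 bp from the gene, 1313 bp from that of PIF4. EXPA9 (AT5G02260) had 4.39 for PIF4 (chromosome 5, 460725 to 463237) and 2.98 for PIF5, with summits 6 bp apart at 1168 and 1174 bp from the gene. XTH15 (AT4G14130) had 4.30 for PIF4 (chromosome 4, 8139742 to 8140428) and 3.10 for PIF5, 20 bp apart at 1731 and 1751 bp. All 3 genes lacked a CRY2 peak by both rules, although the PIF4 peak assigned to EXPA8 overlapped a CRY2 peak of 2.24 that belonged to another gene. XTH28 had a PIF4 peak of 3.56 at 2072 bp from the gene with a PIF5 peak of 2.04, both overlapping a CRY2 peak of 2.30 that belonged to another gene. A CRY2 peak of 2.07 lay exactly as far, 611 bp, from XTH28 as from its neighbour AT1G14710, which received it.

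Stronger peaks than these stood beside 2 beta-expansin genes but were nearer to another gene. EXPB3 (AT4G28250) lay 737 bp from the summit of a PIF4 peak of 5.03 (chromosome 4, 13997079 to 13999623, rank 30 of 9925) and 789 bp from that of a PIF5 peak of 4.35 (rank 114 of 3767), both assigned to AT4G28240. EXPB1 (AT2G20750) lay 197 bp from a PIF4 summit of 4.88 (chromosome 2, 8942362 to 8943584, rank 49) and 173 bp from a PIF5 summit of 3.51, both assigned to AT2G20760. These were the highest values of either PIF within 1 kb of any member, and by the nearest-gene rule they are lost to the expansins. The peaks assigned to EXPB1 and EXPB3 themselves were a PIF4 peak of 3.39 inside EXPB1 and, beyond the end of EXPB3, a PIF4 peak of 1.89 and a CRY2 peak of 2.41 with summits 8 bp apart. EXPB4 had a PIF4 peak by the 1 kb rule only, of 2.70 at 992 bp, which was assigned to AT2G45100.

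**Figure D3:**
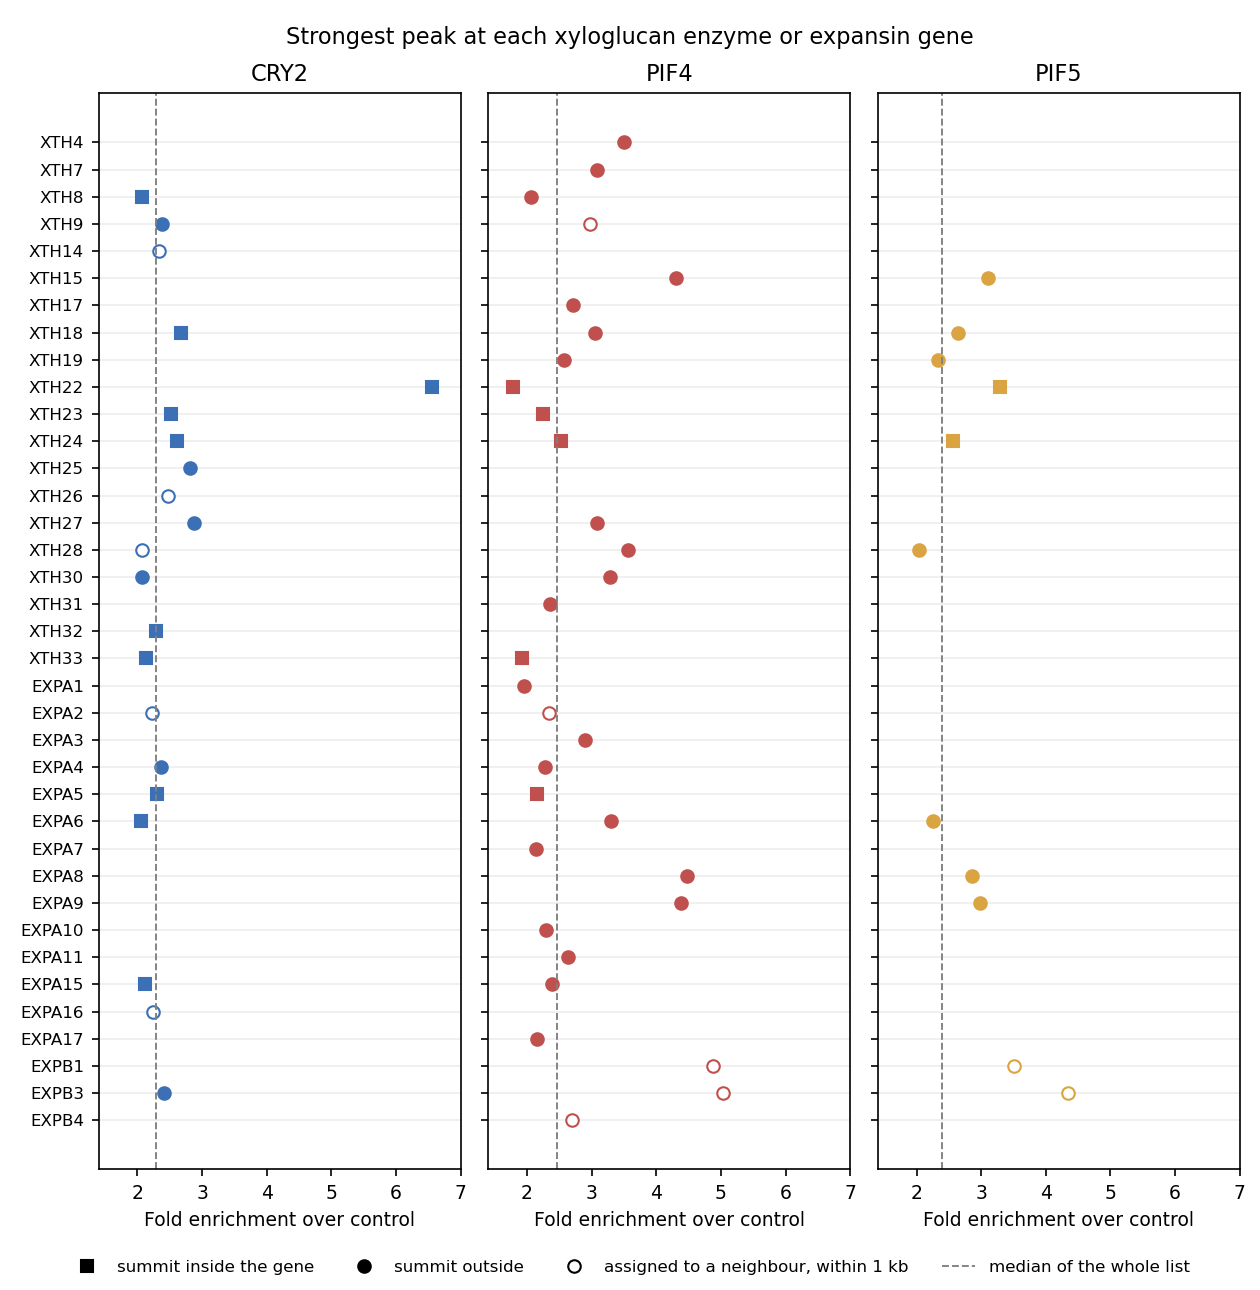
Fold enrichment over control of the strongest peak at each of the 37 members with a peak by either rule, in 1 panel per protein. Squares are summits inside the gene, circles outside, open circles peaks assigned to a neighbouring gene (an exact tie at XTH28), and dashed lines the median of the whole list; the CRY2 point of XTH22, at 6.56, is far right of all other CRY2 points, which end at 2.87.

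The peaks of the members were of ordinary strength as a group. The median fold enrichment of the 20 CRY2 peaks assigned to members was 2.32, against 2.29 for all 7201 assigned CRY2 peaks. For the 46 PIF4 peaks it was 2.42, against 2.46 for all 9638. For the 10 PIF5 peaks it was 2.60, against 2.40 for all 3684. Of these peaks 2 of 20 CRY2, 3 of 46 PIF4 and 0 of 10 PIF5 were in the strongest 10% of their list. PIF4 peaks were weaker at the EXPA genes (median 2.28, 17 peaks) than at the XTH genes (2.57, 27 peaks). The lowest EXPA values were the PIF4 peaks of 1.93 and 1.95 on the 2 sides of EXPA1, an expansin gene known from guard cells, and a second, weaker PIF4 peak of EXPA9, of 1.94.

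Many members had more than 1 PIF4 peak. Of the 29 members with PIF4, 13 had at least 2 peaks (44.8%, against 18.9% of all genes with PIF4), among them 9 of 15 XTH genes. XTH4 (AT2G06850), an XTH gene of growing tissues, had 3, of 3.50 at 1031 bp from the gene and of 3.08 and 2.17 inside it, with no peak of CRY2 or PIF5. XTH30 likewise had 3, of 3.29 at 1572 bp and of 2.94 and 2.16 inside, the first overlapping a CRY2 peak of 2.07. XTH7 had 2 on the same side, of 2.90 at 660 bp and 3.09 at 2769 bp, and the second overlapped a PIF5 peak of 2.1, not assigned to XTH7, with summits 82 bp apart. For CRY2, 4 of 16 members had at least 2 peaks (25%, against 15.9%), and for PIF5 1 of 9 (11.1%, against 11.4%).

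CRY2 peaks at these genes lay mostly inside them and PIF peaks mostly outside, as they did at genes at large. CRY2 summits were inside the member in 12 of 20 cases (60.0%, 95% Wilson interval 38.7 to 78.1), against 60.4% of all assigned CRY2 peaks. PIF4 summits were inside in 11 of 46 cases (23.9%, 13.9 to 37.9), against 34.0% of all, and PIF5 summits in 2 of 10 (20.0%, 5.67 to 51.0), against 36.5% of all. These intervals cover counting error only and treat peaks as independent. The 20 CRY2 peaks were at 16 members and the 46 PIF4 peaks at 29, so some peaks share a gene. The table of genes gives no strand, so upstream and downstream were not told apart. At the EXPA genes 15 of 17 PIF4 summits lay outside, the 2 inside being those of EXPA5 and EXPA6, while 4 of 5 CRY2 summits lay inside.

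More member peaks than usual lay 1 to 3 kb away. For PIF4 it was 13 of 46 peaks (28.3%, against 15.2% of all assigned PIF4 peaks), for CRY2 5 of 20 (25%, against 7.40%) and for PIF5 5 of 10 (50%, against 14.1%). The 13 PIF4 peaks at that distance had a median fold enrichment of 3.29, against 2.58 for the 1463 such peaks of all genes. The 22 PIF4 peaks outside within 1 kb had 2.32, against 2.50, and the 11 inside had 2.25, against 2.36. Of the 10 strongest PIF4 peaks assigned to members, which leaves out the 5.03 and 4.88 within 1 kb of EXPB3 and EXPB1, 9 lay 1 to 3 kb from the gene, and the other was inside EXPB1. The other proteins did not show that order. CRY2 had medians of 2.22 at 1 to 3 kb, 2.41 outside within 1 kb and 2.30 inside, over 5, 3 and 12 peaks. PIF5 ran the other way, with 2.52, 2.64 and 2.92 over 5, 3 and 2 peaks. Members are shorter than other genes (median 1675 bp, against 2078 bp for all genes) and have wider gaps to their neighbours (both gaps together 3321 bp, against 1857 bp). The gaps were 5421 bp for the 32 members with a nearest-gene peak and 1999 bp for the 31 without, and their part in these counts was not tested.

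**Figure D4:**
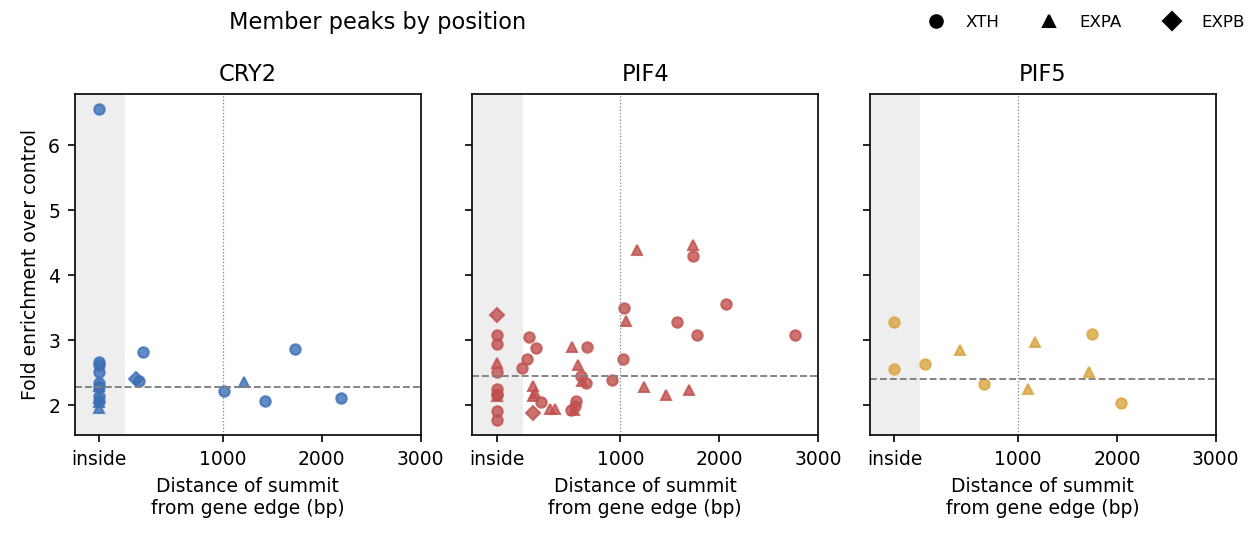
Fold enrichment over control of each peak assigned to a member against the distance of its summit from the gene edge in bp, with summits inside the gene in the grey strip, 1 panel per protein; circles are XTH, triangles EXPA and diamonds EXPB genes, the dashed line is the median of the list and the dotted line stands at 1000 bp. The 3 PIF4 peaks above 4 are all beyond that line, and the CRY2 peak at 6.56 is inside its gene.

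Where CRY2 and PIF4 were at the same member, their peaks mostly overlapped, at 10 of 13 members (76.9%, against 88.5% of all genes with both). Summits were within 100 bp at 6 of the 13, against 50.2% of all genes with both. At the 10 with overlap they were a median of 35.5 bp apart, against 84.0 bp at all genes with overlap. They were closest at EXPB3 (8 bp), at EXPA5 and XTH24 (12 bp each) and at XTH18 (14 bp), and farthest at XTH23 (559 bp). At XTH8, XTH33 and EXPA15 the nearest summits of assigned peaks were 1356, 1483 and 2267 bp apart without overlap. A PIF4 peak of XTH8, of 2.07, did overlap a CRY2 peak of 2.39 not assigned to XTH8, with summits 559 bp apart. At EXPA5, an expansin gene controlled by brassinosteroid, both peaks were inside the gene, 2.30 for CRY2 and 2.15 for PIF4. At XTH27, a vein-expressed XTH gene, both lay about equally far outside, 2.87 for CRY2 at 1725 bp and 3.09 for PIF4 at 1774 bp. CRY2 and PIF5 peaks overlapped at 2 of 4 members, XTH22 and XTH24 (50%, against 89.4% of all genes with both). PIF4 and PIF5 peaks overlapped at all 9 members with both (against 98.2% of all such genes), with summits a median of 24 bp apart and at most 131 bp, at XTH22.

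The 3 members with CRY2 alone differed in the strength of their peak. XTH25 had the 2.82 described above, rank 780 of 7320 and below only the peaks of XTH22 and XTH27 among the members, while XTH32 had 2.29 inside the gene, and neither overlapped a PIF peak. At XTH9, an XTH gene of the shoot apex, the CRY2 peak of 2.38 had its summit 151 bp from the gene and overlapped a PIF4 peak of 2.97 that was assigned to the neighbour hemf2 though only 384 bp from XTH9. XTH26, XTH14 and EXPA16 had CRY2 within 1 kb by peaks given to neighbours, of 2.47, 2.34 and 2.24, and EXPA2, an expansin gene of germinating seeds, had CRY2 of 2.22 and PIF4 of 2.34 in that way.

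The other genes of xyloglucan synthesis and wall loosening, a list of 21, had CRY2 at 10 (47.6%, against 22.1% of all genes), PIF4 at 8 (38.1%, against 28.8%) and PIF5 at 6 (28.6%, against 11.9%). All 3 proteins were at 5 of them (23.8%, against 7.15%). MUR3 and XLT2, galactosyltransferases of xyloglucan, had peaks of 2.11 and 2.50 for CRY2, 3.47 and 3.04 for PIF4, and 3.17 and 2.12 for PIF5. XYL1, the xylosidase that trims xyloglucan, had 2.81, 5.04 and 5.34 for CRY2, PIF4 and PIF5, of which both PIF values were above those of every peak assigned to an XTH or expansin gene. These XYL1 peaks of all 3 proteins had their summits more than 1 kb from the gene. Within 1 kb of XYL1 the strongest were 2.05 for CRY2 and 2.84 for PIF4, with no PIF5 peak. The proton pump genes AHA1 and AHA2, whose products acidify the wall, had 2.36 and 2.30 for CRY2, 3.10 and 3.40 for PIF4, and 2.67 and 2.70 for PIF5. The PIF5 peak of 2.67 at AHA1 also lay more than 1 kb away, with 2.28 within 1 kb. Among the 4 expansin-like genes only EXLA1 had peaks, of CRY2 (2.39) and PIF4 (2.49). Of the CSLC genes, which make the xyloglucan backbone, CSLC4 had peaks of 2.15 for CRY2 and 2.12 for PIF5. CSLC6 had a PIF4 peak of 2.13 by the 1 kb rule only.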

How the data were processed

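Per the labels' protocols, chromatin from tagged seedlings was precipitated with an anti-FLAG antibody or with IgG, and 13 libraries were sequenced. Per the submitters' processing notes, the build was TAIR10 and the tools were MACS2 2.0.10, Bowtie2 2.1.0 and CASAVA 1.8.2, with no role or order stated. The authors deposited 3 peak lists, 1 per protein, on pooled replicates. In these the strength of a peak is the authors' ratio, a fold enrichment over control. The deposited -log10 p and the deposited score, which is 10 times the -log10 p without its decimals, were not used for the main counts. No read depth is given in the sources used here.

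Peak positions are on TAIR10, counted from 1. Genes came from the RefSeq table of TAIR10.1, without strand. As a check of its frame, 49.3% of PIF4 summits lay outside genes within 1 kb of one, and 20.7% after a shift of 2000 bp. A summit inside several genes went to the one with the nearer edge. Peaks of different proteins overlapped when they shared at least 1 bp. Percentages of all genes are over the 27444 nuclear protein-coding genes. No difference was tested, since each list is a single pooled measurement. Gene sequences were not used here, so the planned search for G-box and PBE-box elements was not run.

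The members and lists were chosen with earlier results of these data known. Named genes were XTH22, members with all 3 proteins or with CRY2 alone, the 5 strongest per protein and pairs sharing a peak; further members were named after their values were seen, so that each bound group is described. The assignment was tested on simulated peaks, only at genes that stand apart from their neighbours. That test did not cover closely spaced or overlapping genes, ties, or nearest-gene assignment well beyond 1 kb. Python 3.11.15, numpy 2.4.6, pandas 2.3.3, scipy 1.17.1 and matplotlib 3.10.9 were used.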

Additional observations from a re-analysis of the deposited data

How the results depend on the processing

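No paired analysis was possible because each list pools its replicates. The motif search was not run. Of 147 recomputed values, 97 stayed within 1.5 times the reported count, or within the 95% interval of a share or median, and 50 did not. Those 50 follow, with the share of all genes where it bears on the reading. With summits outside genes within 1 kb, PIF4 was at 18 members (28.6%, against 16.8% of all genes). CRY2 was at 3 (4.76%, against 8.13%) and PIF5 at 3 (4.76%, against 6.41%), both below the share of all genes. By subfamily that setting gave CRY2 at 2 XTH and 0 EXPA genes, PIF4 at 9 XTH and 1 EXPB gene, and PIF5 at 2 XTH and 1 EXPA gene. Its combinations were 0 members with all 3 proteins (against 2.42% of all genes) and 1 with CRY2 and PIF4 (1.59%, against 2.34%). Both PIFs were at 2 (3.17%, against 3.28%) and PIF5 alone at 1 (1.59%, against 0.492%). With the upper 50% of each list by fold enrichment, PIF4 was at 16 members (25.4%, against 15.7%), 5 of them EXPA and 1 EXPB. CRY2 was at 2 EXPA genes (8.33%, against 11.8% of all genes). All 3 proteins were then at 2 members (3.17%, against 2.88%), CRY2 and PIF4 at 1 (1.59%, against 2.62%) and CRY2 and PIF5 at 1 (1.59%, against 0.368%). Both PIFs were at 3 (4.76%, against 2.82%) and CRY2 alone at 7 (11.1%, against 5.94%). CRY2 alone thus stood above the share of all genes and CRY2 with PIF4 below it, the reverse of the main counts. The upper 50% by -log10 p gave CRY2 at 10 members (15.9%, against 11.9%), PIF4 at 16 (25.4%, against 15.7%) and all 3 at 2 (3.17%, against 2.98%). CRY2 and PIF4 were at 1 (1.59%, against 2.62%) and CRY2 and PIF5 at 1 (1.59%, against 0.317%). Both PIFs were at 3 (4.76%, against 2.83%) and CRY2 alone at 6 (9.52%, against 5.96%). With lists of equal size, 3767 peaks each, PIF4 was at 13 members (20.6%, against 12.2%), 8 XTH, 4 EXPA and 1 EXPB. CRY2 was at 2 EXPA genes (8.33%, against 12.2% of all genes). All 3 were then at 1 member (1.59%, against 3.99%), CRY2 and PIF4 at 1 (1.59%, against 0.645%) and CRY2 and PIF5 at 2 (3.17%, against 1.41%). CRY2 alone was at 7 (11.1%, against 6.11%), PIF4 alone at 6 (9.52%, against 2.77%) and PIF5 alone at 1 (1.59%, against 1.73%). Within 1 kb of the summit, both PIFs were at 2 members (3.17%, against 4.32%), below the share of all genes and not above it as in the main counts. CRY2 alone was at 5 (7.94%, against 9.70%) and PIF5 alone at 1 (1.59%, against 0.292%). PIF5 was at 1 EXPA gene (4.17%) and 2 EXPB genes (33.3%), against 15.2% of all genes. With the nearest gene limited to 1 kb, PIF5 was at 5 members (7.94%, against 10.6%), both PIFs at 1 (1.59%, against 3.54%) and PIF5 alone at 1 (1.59%, against 0.328%). With any base of the peak within 1 kb, all 3 were at 7 (11.1%, against 12.2%). With summits within 100 bp, CRY2 and PIF4 coincided at 6 members. The PIF4 share of members stayed above that of all genes under all 9 alternatives, and those of CRY2 and PIF5 lay on both sides. The tie at XTH28, resolved the other way after the data were seen, gave CRY2 at 17. Shorter lists and narrower windows hold fewer peaks by construction.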
